A study of Mus musculus with 6 samples.

Results

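The cells described here were perineurial-like fibroblasts of the mouse sciatic nerve at postnatal day 1 (P1), picked out of single-cell RNA profiles by their own RNA counts. A cell was taken when it had between 500 and 5000 detected genes, at least 5 unique molecular identifiers (UMIs, each standing for 1 captured RNA molecule) of the fibroblast collagen Col1a2, and at least 3 UMIs in the sum of Crabp2, Lypd2, Itgb4 and Cldn1. It also had at most 1 UMI of Meox1 and Cdkn2b together, at most 3 of Pi16 and Clec3b together, and no UMI of Mki67, Top2a, Sox10, Pecam1 or Ptprc, which mark dividing, Schwann, endothelial and immune cells. This gave 113, 95 and 86 cells in the 3 P1 libraries, 294 of the 11735 P1 cells and of the 24337 cells in the series. The levels of these 14 genes chose the cells, so they are given as a description with no test, and so are the P1 levels of the markers Crabp2, Lypd2, Rspo1, Hhip, Klf5 and Wfdc1.

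All cells came from nerves of P0Cre-/+ : ReYFP Tg/+ : βAct-DsRed Tg/+ mice on the C57bl/6J background, in 3 independent suspensions at P1 and 3 at P60, each pooling nerves of males and females. P0Cre acts in Schwann cells, so that eYFP labels Schwann cells, and the actin promoter drives DsRed in cells of all types. DsRed-positive cells were sorted at both ages, and at P1 only, cells positive for both DsRed and eYFP were partly removed to restrict Schwann cells. Age, sort and libraries therefore cannot be told apart in any comparison of P1 with P60, and each suspension counts as 1 replicate whatever its number of cells.

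The perineurium is the layered sheath around each nerve fascicle. Its flat cells are joined by tight junctions, coated with basal lamina and supplied with glucose transporters, and together with the endoneurial vessels they form the blood-nerve barrier. Schwann cells secrete desert hedgehog, and perineurial cells carry its receptor Patched, a signal that the sheath needs to form properly. Endoneurial fibroblasts lie inside the fascicle among the axons, and epineurial fibroblasts outside it.

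The 6 libraries held between 3435 and 4586 cells after the filter on detected genes, with 20203440 to 30334608 UMIs in all and a median of 3627 to 6840 UMIs per cell. Pairs of libraries shared 13 to 32 cell barcodes. P60 replicate 3 stood apart in quality, with 16.2% of its cells above 10% mitochondrial UMIs, against 2.97 and 4.84% in the other P60 libraries and 9.56 to 13.6% at P1. The perineurial-like cells had a median of 7368 ± 743 UMIs (SD of the 3 library medians) and a median mitochondrial share of 3.52%.

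Perineurial-like cells made up 3.30% ± 0.787 (SD, n = 3, range 2.69 to 4.19%) of the 9049 P1 cells with at least 5 Col1a2 UMIs. The requirement on Crabp2, Lypd2, Itgb4 and Cldn1 reduced those 9049 cells to 1358, the limit on Meox1 and Cdkn2b to 1268, and the limit on Pi16 and Clec3b to 448. The absence of Mki67 and Top2a left 323 cells, and that of Sox10, Pecam1 and Ptprc left 294. The dividing cells set aside in this way were a sizeable share: among cells that met all other conditions, 115 of 409 carried Mki67 or Top2a, 28.3% ± 3.15 (SD, n = 3). These dividing cells were deeper, with library medians of 8526 to 11280 UMIs against 6521 to 7911, and the part of depth in this share was not tested.

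Other groups of P1 cells served for comparison, all with at least 5 Col1a2 UMIs. The endoneurial-marker cells (992 cells) carried at least 2 UMIs of Meox1 and Cdkn2b, genes of endoneurial fibroblasts, and the epineurial-marker cells (1788 cells) at least 4 UMIs of Pi16 and Clec3b, genes of epineurial fibroblasts. Both had at most 2 UMIs of the 4 perineurial genes and none of the genes for dividing, Schwann, endothelial or immune cells. The remaining 8755 cells outside the rule formed the broadest group, but 24% of them carried Sox10, 20.4% carried Mki67 or Top2a and 12.2% had a sum of at least 3 UMIs of the 4 perineurial genes. The epineurial- and endoneurial-marker cells are therefore the closer reference. Levels are given as CPM, a gene's UMIs divided by all UMIs of the group's cells in a library and scaled to 1000000.

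Crabp2, which carries retinoic acid inside the cell (chr3:87948666-87953376, GRCm38), stood at 315, 362 and 270.0 CPM in the perineurial-like cells of the 3 libraries and at 44.8, 42.6 and 45.1 CPM in the other P1 cells. Lypd2, a membrane-anchored protein of the Ly6 family (chr15:74732247-74734329), stood at 137, 117 and 122 against 33.2, 30.5 and 34.9 CPM. Both genes are part of the rule, and their levels did not overlap between the groups. Itgb4, the integrin chain that anchors cells to laminin, reached only 30.5, 34.9 and 28.0 CPM, and Cldn1, a sealing protein of tight junctions, 289, 308 and 316 CPM.

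The other 4 markers were not used to pick cells. Klf5, a zinc-finger transcription factor (chr14:99298691-99315036), had 553, 644 and 542 CPM in the perineurial-like cells, 102, 104 and 86.6 CPM in endoneurial-marker cells and 90.7, 121 and 114 CPM in epineurial-marker cells. Wfdc1, a secreted protein with a whey acidic protein domain (chr8:119666365-119688222), had 373, 379 and 349.7 CPM, against 103, 95.8 and 112 CPM in endoneurial-marker and 127, 139.7 and 146 CPM in epineurial-marker cells. Neither gene's levels in the perineurial-like cells overlapped those of the other 2 groups. Hhip, a membrane protein that binds and holds back hedgehog ligands (chr8:79965851-80058006), had 239, 298 and 218 CPM, against 14.1, 11.7 and 9.35 CPM in endoneurial-marker and 141, 142 and 123 CPM in epineurial-marker cells. Rspo1, a secreted enhancer of Wnt signalling (chr4:124986430-125009099), was at a low level, 50.5, 71.4 and 38.4 CPM, above 0.704, 1.03 and 0.825 CPM in endoneurial-marker and 20.4, 25.0 and 25.7 CPM in epineurial-marker cells. These 4 markers were higher than in both neighbouring fibroblast groups in every library, and the levels of Crabp2 and Lypd2 followed from the rule and from the limits on those groups. The 4 were proposed from these data, and both groups were limited to 2 UMIs of the 4 perineurial genes. Each of the 4 was higher at a larger sum of those genes (Klf5 52.7 CPM at 0 and 639.6 CPM at 5 or more). Their differences therefore follow in part from the choice of cells and cannot check the label.

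**Figure D1:**
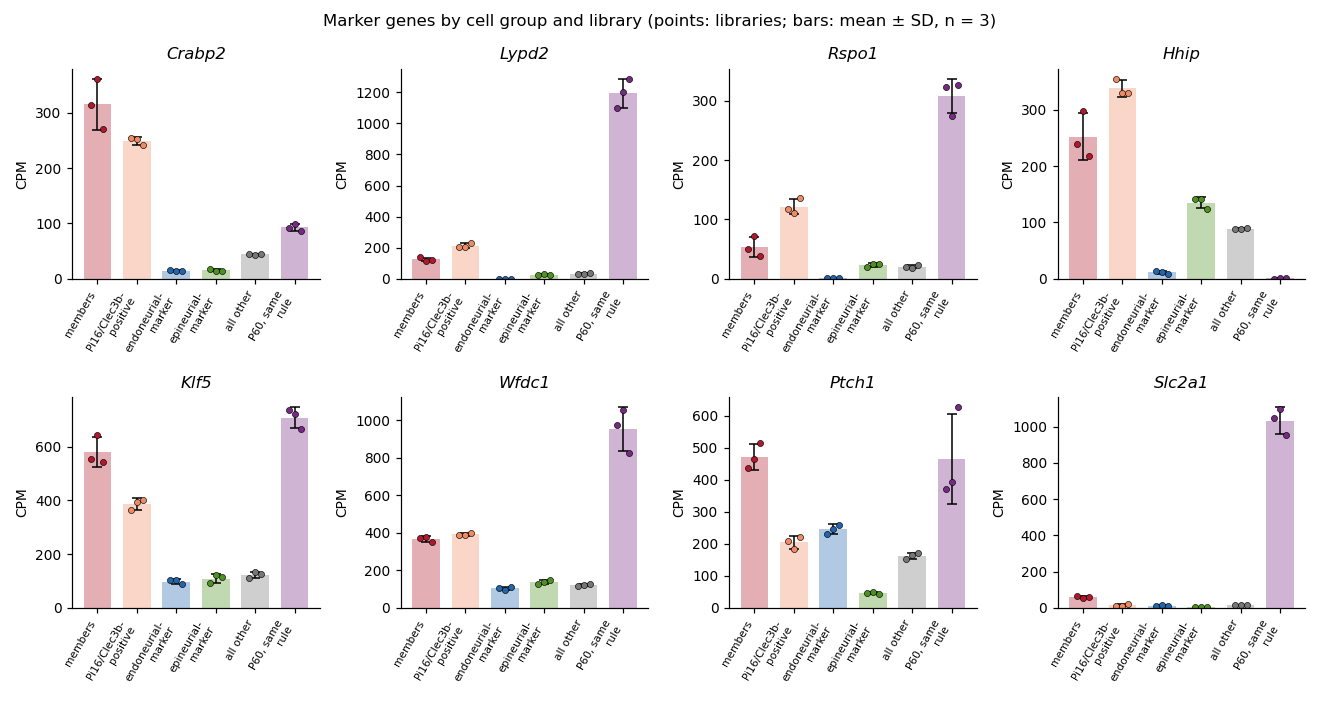
Level in CPM (linear axis from 0) of the 6 markers, Ptch1 and Slc2a1 in P1 perineurial-like cells, P1 cells kept out by Pi16 and Clec3b alone, endoneurial-marker cells, epineurial-marker cells, all other P1 cells and P60 cells passing the same rule. Bars are means, error bars SD and points the 3 libraries, and Hhip stands near 0 at P60 while Rspo1, Lypd2 and Slc2a1 stand higher there than at P1.

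After each cell was thinned to 2000 UMIs, Klf5 was seen in 66.3% and Wfdc1 in 50.9% of 291 perineurial-like cells (3 shallower cells were left out), against 16.0 and 17.4% of 8639 other cells (116 left out). Hhip was seen in 35.4% against 13.7%, Rspo1 in 7.56% against 3.22%, Crabp2 in 46.4% against 6.10% and Lypd2 in 21.6% against 4.87%. Without thinning, the shares in the perineurial-like cells were 90.1% for Klf5, 84.0% for Wfdc1, 68.4% for Hhip, 20.7% for Rspo1, 82.3% for Crabp2 and 47.6% for Lypd2. Free RNA in a suspension can put UMIs into cells that do not make it, so 109 immune cells (at least 2 Ptprc UMIs and at most 1 of Col1a2, median 6500 to 7525 UMIs per library) were read the same way. Crabp2, Lypd2, Rspo1, Hhip and Klf5 were seen in 0 of these 109, which allows up to 3.33% (exact Clopper-Pearson interval, 95%), and Wfdc1 in 0.917%. A second set of 24 cells had at least 2 Sox10 UMIs and at most 1 of Col1a2. There Crabp2 and Wfdc1 were each seen in 1 cell (4.17%, up to 21.1%), and Lypd2, Rspo1, Hhip and Klf5 in 0 (up to 14.2%). Such intervals cover counting error only.

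The cells reached the threshold of the rule by unequal routes. Of the 294 cells, 88.1% had a UMI of Cldn1, 82.3% of Crabp2, 47.6% of Lypd2 and 16.7% of Itgb4. Crabp2 gave 40.6% and Cldn1 39.1% of the 1674 UMIs counted over the 4 genes, Lypd2 16.4% and Itgb4 4.0%. Most cells carried 2 genes (133 cells) or 3 genes (100 cells), 21 carried all 4 and 40 only 1. The P60 cells passing the rule showed another balance, with Itgb4 in 96.1%, Cldn1 in 95.2%, Lypd2 in 93.0% and Crabp2 in 33.8%, and a median sum of 18 UMIs against 5 at P1.

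The threshold of 3 UMIs cut through a gradual scale. With sums of 0, 1, 2, 3, 4 and at least 5 UMIs, cells that met the other conditions had a mean Klf5 level of 52.7, 154, 336, 418, 533 and 639.6 CPM. The 127 cells just outside the threshold had 336 ± 9.42 CPM of Klf5 (SD, n = 3) and 206 ± 43.9 CPM of Wfdc1, and the 56 cells just inside it 418 ± 58.2 and 239 ± 15.5 CPM. Hhip was 159.8 ± 72.4 just outside and 215 ± 73.1 CPM just inside, and Rspo1 22.6 ± 5.6 and 54.4 ± 36.1 CPM. For Klf5, Wfdc1 and Hhip, the levels on the 2 sides of the threshold lay closer to each other than to the level at a sum of 0. Median depth also climbed with the sum, from 4174.5 to 5135 UMIs over the libraries at 0 to 7321 to 8454.5 at 5 or more. The part of depth in this gradient was not tested.

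**Figure D2:**
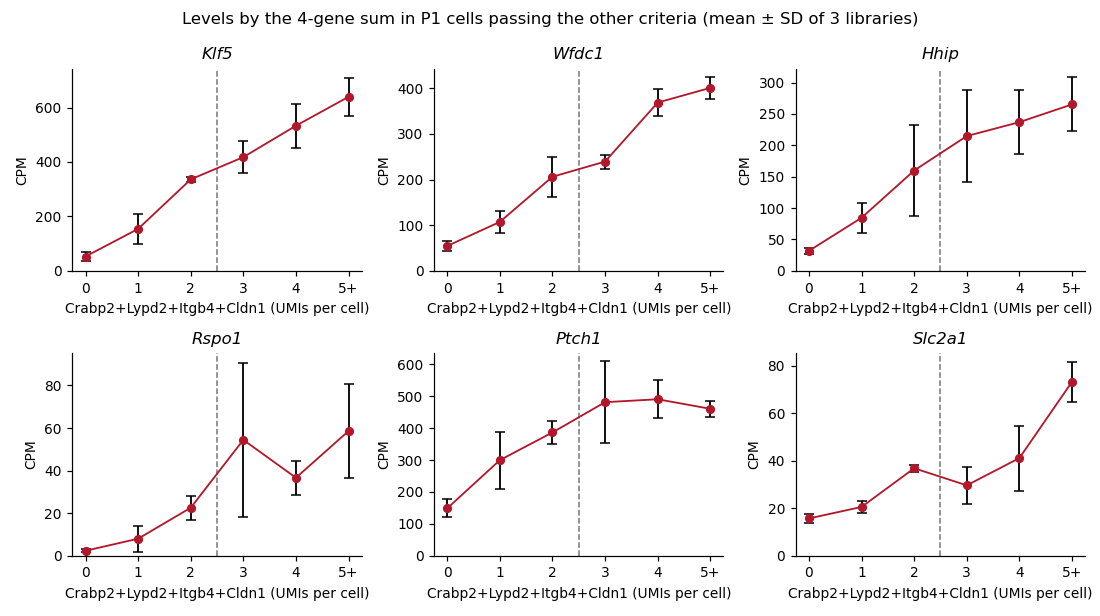
Mean level in CPM (linear axis) of Klf5, Wfdc1, Hhip, Rspo1, Ptch1 and Slc2a1 in P1 cells that met the other conditions, by their summed UMIs of Crabp2, Lypd2, Itgb4 and Cldn1, with error bars of 1 SD over 3 libraries and a dashed line at the threshold. Klf5 climbs from 52.7 CPM at a sum of 0 to 639.6 CPM at 5 or more and stands at 336 and 418 CPM on the 2 sides of the line.

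A larger group of P1 cells carried the same 4 perineurial genes but was kept out by Pi16 and Clec3b alone. It held 637 cells, 7.04% ± 1.02 of cells with Col1a2, more than the 294 perineurial-like cells. Klf5 there was 363, 394 and 403 CPM and Hhip 355, 329 and 329 CPM. Against these cells, 1699 of 8562 genes tested (19.8%) passed the threshold of an adjusted p of 0.05, a comparison added after the data were seen. The perineurial-like cells were higher in Slc2a1 by 1.95 on the log2 scale, in Slc6a13 by 3.15, in Gjb6 by 3.76, in Ocln by 2.78 and in Ptch1 by 1.09. They were lower in Ly6a (-6.57), Sfrp2 (-4.08), Gas1 (-2.63), Ccdc3 (-0.94) and Gas6 (-0.31). The junction genes Tjp1 (0.39) and F11r (0.27) and the type IV collagen chain Col4a1 (0.05) did not pass. The 4 perineurial genes, Pi16 and Clec3b were high in the cells kept out because these were chosen on them. Their median depth was 7846 ± 406 UMIs, against 7368 ± 743 in the perineurial-like cells. No doublet caller was run, so doublets were not told apart from cells that carry both.

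Variation among the perineurial-like cells was examined in 1 split. Cells with a UMI of Lypd2, Itgb4 or Cldn1 were set against the 12 cells that had Crabp2 alone (7, 5 and 0 by library), so this rests on few cells of 2 libraries. Of 6835 genes, 3 (0.0439%) passed an adjusted p of 0.05 by edgeR's quasi-likelihood test, all higher in the first group: Lum by 1.95 ± 0.38, Socs3 by 2.00 ± 0.44 and Ier2 by 1.41 ± 0.28 on the log2 scale. At an unadjusted p under 0.05 there were 203 genes, and DESeq2 called 0 after adjustment and 17 at that unadjusted level.

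The comparison with the 2 neighbouring fibroblast groups asks which genes set the P1 perineurial-like cells apart. The cells were chosen on RNA counted in the same libraries, so the P1 differences below are descriptions of size, each a log2 difference ± SE of a fit with the library as a block (n = 3 pairs), and the number past an adjusted p of 0.05 states size against the spread of 3 suspensions. Unless an order is given, the first of 2 differences is that from endoneurial-marker and the second that from epineurial-marker cells. Cells with more than 10% mitochondrial UMIs made up 7.96 to 11.6% of the perineurial-like, 1.26 to 3.06% of the endoneurial-marker and 2.58 to 3.52% of the epineurial-marker cells, and the median depths by library were 6521 to 7911, 9109 to 9852.5 and 5986 to 6400 UMIs. Against endoneurial-marker cells, 28.9% of 9914 genes passed, 1424 higher and 1443 lower, and 2682 genes without the cells above 10% mitochondrial UMIs. Against epineurial-marker cells, 36.4% of 10092 genes passed, 1813 higher and 1863 lower (3685 genes without those cells), and with scaling by total UMIs alone 2870 higher and 1315 lower, the median of all genes then being 0.20 higher. Against all other P1 cells with Col1a2, 24.7% of 13925 genes passed, 10.1% higher and 14.6% lower.

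By the rule for naming, which takes genes of at least 50 CPM, the 6 largest excesses over endoneurial-marker cells were in Sfrp5, Bmp3, Ccdc3, Gas6, Spink1 and Sema3d. Sfrp5, a secreted Wnt antagonist, had 629, 528 and 457 CPM in the perineurial-like cells, 6.69, 6.53 and 6.88 CPM in endoneurial-marker cells and 26.1, 33.5 and 28.9 CPM in epineurial-marker cells. It did not overlap between any pair of groups and was higher by 6.22 ± 0.12 and 3.97 ± 0.10. Bmp3, a member of the bone morphogenetic protein family that restrains signalling by other members, had 136, 165 and 156 CPM against 3.52, 3.44 and 3.30 CPM in endoneurial-marker and 43.7, 41.4 and 51.1 CPM in epineurial-marker cells, a difference of 5.38 ± 0.19 and 1.54 ± 0.11. Gas6, the ligand of the Axl, Tyro3 and Mer receptors, was 5.10 ± 0.18 higher than in endoneurial-marker cells and 0.41 ± 0.10 higher than in epineurial-marker cells. The latter did not pass with DESeq2 (adjusted p = 0.08827), with at most 50 cells per library and group (0.33) or with at least 2 UMIs of Itgb4, Cldn1 and Lypd2 (0.30). Ccdc3, a secreted protein, was 5.30 and 0.73 higher, the latter not passing with at most 50 cells per library and group (0.65). Against the P1 cells kept out by Pi16 and Clec3b alone, the perineurial-like cells were lower in both Ccdc3 (-0.94) and Gas6 (-0.31). Sema3d, a secreted axon guidance cue, was 4.86 and 1.87 higher, and the protease inhibitor Spink1 was 4.88 ± 0.28 higher than in endoneurial-marker cells.

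Collagens of cartilage were among the 6 lowest genes against endoneurial-marker cells. Col2a1, the fibrillar collagen of cartilage, had 9.39, 4.76 and 0 CPM against 170.3, 168 and 167 CPM, a difference of -5.11 ± 0.23. Col9a2, which coats such fibrils, differed by -5.48 ± 0.17 and the serine protease Htra1 by -4.98 ± 0.32. The lysosomal reductase Ifi30 (-4.19), the cysteine protease inhibitor Cst6 (-4.13) and the calcium-dependent membrane-binding protein Cpne8 (-4.12) completed the 6 lowest genes.

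Against epineurial-marker cells the 6 largest excesses by the same rule were in Spp1, Cxadr, Gsta4, Casq2, Dleu7 and Foxc2. Spp1, the secreted matrix phosphoprotein osteopontin, had 107, 179 and 152 CPM in the perineurial-like cells, 3.29, 2.02 and 1.24 CPM in epineurial-marker and 28.2, 26.4 and 28.6 CPM in endoneurial-marker cells, and was 5.88 ± 0.22 and 2.30 ± 0.14 higher in that order. Cxadr, an adhesion receptor found at tight junctions, had 142, 143 and 137 CPM, against 2.40, 5.30 and 3.46 CPM in epineurial-marker and 16.5, 13.1 and 12.4 CPM in endoneurial-marker cells, and was 5.0 ± 0.19 and 3.25 ± 0.15 higher in that order. Gsta4, a glutathione transferase that detoxifies lipid peroxidation products, was 4.97 ± 0.18 higher than in epineurial-marker and 3.45 ± 0.15 higher than in endoneurial-marker cells. Neither Cxadr nor Gsta4 overlapped between the groups. Casq2, a calcium-binding protein of the sarcoplasmic reticulum, was 4.74 ± 0.28 higher, Dleu7 4.67 ± 0.20 and the forkhead factor Foxc2 4.42 ± 0.18.

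The matrix protein dermatopontin (Dpt) was at 0 UMIs in the perineurial-like cells of all 3 libraries and at 330.3, 306 and 295 CPM in epineurial-marker cells, at least 223-fold lower. Akr1c18, a steroid-converting reductase, was also at 0, at least 46.7-fold lower. The surface proteins Ly6a and Ly6c1 differed by -8.81 ± 0.14 and -7.28 ± 0.23, the activin antagonist follistatin (Fst) by -7.05 ± 0.20 and the Wnt antagonist Sfrp2 by -7.03 ± 0.19. Dpt, Ly6a, Ly6c1 and Sfrp2 belong to a list of genes of epineurial fibroblasts. Against epineurial-marker cells 0 of 19 tested genes were higher and 19 lower (median log2 difference -2.78). For the endoneurial-marker comparison, 9 of 13 tested genes were higher and 1 lower (median log2 difference 1.91). The rule limited Pi16 and Clec3b in the perineurial-like cells, and the epineurial-marker cells were chosen for UMIs of these genes. The count against epineurial-marker cells therefore follows in part from the choice of cells and cannot check the label. The shares over all genes in both comparisons are given below, with the adult perineurial list.

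Against all other P1 cells the 12 leading genes were Gsta4 (2.89 ± 0.12), Spink1 (2.75), Cxadr (2.74), Dleu7 (2.69), Spp1 (2.55), Ptger3 (2.52), Sema3d (2.52), Kera (2.5), Fblim1 (2.43), Hspb1 (2.26), Bmp3 (2.22) and Cav1 (2.22). Ptger3 is a receptor for prostaglandin E, Kera (keratocan) a small leucine-rich matrix proteoglycan, Fblim1 an adaptor of cell-matrix junctions, Hspb1 a small heat shock protein and Cav1 the scaffold of caveolae. Cav1 had 863, 806 and 810.1 CPM against 59.5, 48.4 and 61.9 CPM in endoneurial-marker and 87.5, 86.3 and 84.2 CPM in epineurial-marker cells. The 12 lowest were, beside Dpt (at least 50.6-fold lower), Ly6a (-6.58), Pbk (54.3-fold (95% counting interval 15 to 449) lower), Ncmap (-5.75), Fst (-5.51), Ly6c1 (-5.28), Bcas1 (-5.09), Sfrp2 (-4.83), Mlip (-4.51), Efhd1 (-4.46), Pla2g16 (-4.39) and Lyz2 (-4.36). Pbk is a mitotic kinase, Ncmap and Bcas1 are myelin genes and Lyz2 is the lysozyme of macrophages, so these mark cell types that the rule removed.

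**Figure D3:**
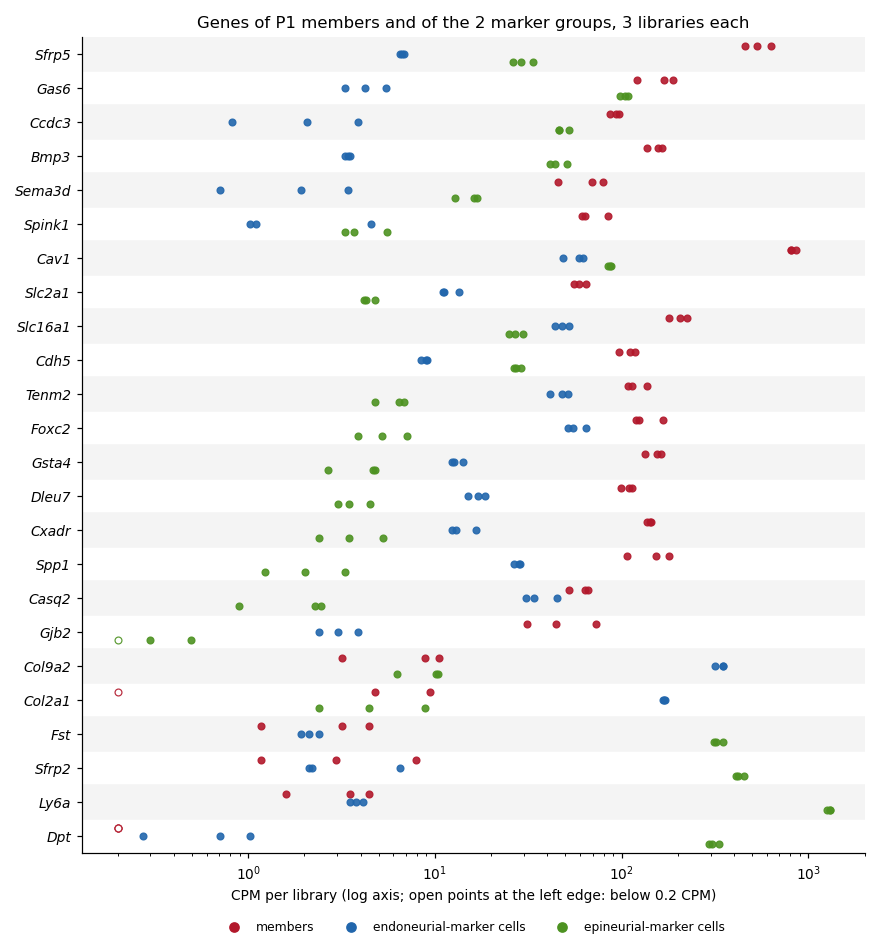
Level in CPM (log axis) of 24 genes, Sfrp5 to Dpt, in P1 perineurial-like cells, endoneurial-marker cells and epineurial-marker cells, each point being 1 of 3 libraries and open points at the left edge being near or at 0. Sfrp5, Bmp3, Cxadr and Cav1 stand to the right of both other groups, and Dpt is at 0 in the perineurial-like cells.

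A list of 30 genes known from adult perineurial cells was compiled with results of these data known. Its counts therefore describe the cells and cannot check the label. Of the 30 genes, 5 were rule or marker genes, which stayed untested at P1. Of its tested genes, 16 of 20 were higher and 1 lower than in endoneurial-marker cells (median log2 difference 1.42, against 0.01 over all genes, of which 14.4% were higher and 14.6% lower), and 17 of 20 were higher and 0 lower than in epineurial-marker cells (median 3.48, against -0.01 over all genes, of which 18% were higher and 18.5% lower). Krt19, an intermediate filament keratin, had 30.5, 27.0 and 23.6 CPM against 1.41, 1.37 and 0.55 CPM in endoneurial-marker and 1.5, 2.27 and 2.47 CPM in epineurial-marker cells, 4.48 ± 0.40 and 3.45 ± 0.34 higher. Wnt6, a Wnt ligand, had 58.7, 69.8 and 82.6 CPM against 3.17, 3.09 and 1.65 CPM in endoneurial-marker and 6.59, 6.05 and 4.69 CPM in epineurial-marker cells, 4.67 ± 0.26 and 3.40 ± 0.22 higher. The adhesion protein Tenm2 was 1.27 ± 0.13 and 4.08 ± 0.18 higher. The exception was Shisa3, an inhibitor of Wnt and FGF receptor maturation, lower than in endoneurial-marker cells (34.0, 50.8 and 32.5 against 84.8, 75.9 and 75.1 CPM).

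The tight junction list was mostly higher where it passed. Against endoneurial-marker cells 7 of 14 tested genes were higher and 0 lower (median log2 difference 0.34), and against epineurial-marker cells 9 of 16 tested genes were higher and 1 lower (median log2 difference 0.78). Ocln (occludin), a membrane protein of the junction strand, had 9.39, 17.5 and 22.1 CPM against 0.352, 0 and 0 CPM in endoneurial-marker and 0, 0 and 0.741 CPM in epineurial-marker cells, ratios of 148-fold (95% counting interval 24.8 to 6008) and 59.6-fold (95% counting interval 18.7 to 303). Tjp1 (ZO-1), the scaffold beneath the strands, had 65.7, 69.8 and 70.8 CPM against 21.8, 23.4 and 20.6 CPM in endoneurial-marker and 19.5, 26.2 and 21.2 CPM in epineurial-marker cells, 1.57 ± 0.17 and 1.43 ± 0.16 higher. F11r, the junctional adhesion molecule JAM-A, was 1.84 and 2.63 higher. For these 3 genes the perineurial-like cells exceeded both groups in every library. Against the P1 cells kept out by Pi16 and Clec3b alone, Ocln was 2.78 higher, whereas Tjp1 (0.39) and F11r (0.27) did not pass.

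Transport genes of barriers were divided. Slc2a1 (GLUT1, chr4:119108711-119137983), the glucose transporter of blood-tissue barriers, had 64.6, 55.5 and 59.0 CPM, against 11.3, 13.4 and 11 CPM in endoneurial-marker and 4.79, 4.29 and 4.20 CPM in epineurial-marker cells. The groups did not overlap, and Slc2a1 was 2.26 ± 0.20 and 3.53 ± 0.23 higher. After thinning, it was seen in 10.7% of the perineurial-like cells, and in 3.67% of the immune cells. Slc16a1, the lactate and pyruvate transporter MCT1, was 2.00 ± 0.11 and 2.69 ± 0.11 higher. In the whole list, against endoneurial-marker cells 5 of 15 tested genes were higher and 7 lower (median log2 difference -0.44), and against epineurial-marker cells 5 of 15 tested genes were higher and 5 lower (median log2 difference 0.24). Slc1a3, a glutamate transporter, was lower against both groups.

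Hedgehog genes are given by role. The ligand Dhh was low, with 4.70, 6.35 and 4.43 CPM in the perineurial-like cells and 91.8, 95 and 94.5 CPM in the other cells, which include Schwann cells. The receptor Ptch1 (chr13:63508328-63573598), itself a target of the pathway, had 436, 463 and 513 CPM, 229, 246 and 259.9 CPM in endoneurial-marker and 46.1, 50.2 and 44.2 CPM in epineurial-marker cells. The endoneurial-marker cells thus came second, and the differences were 0.87 ± 0.07 and 3.12 ± 0.09. The pathway's transcription factor and target Gli1 was 0.59 ± 0.16 and 0.64 ± 0.16 higher, but neither difference passed with DESeq2 (adjusted p = 0.1547 and 0.09032), nor with at most 50 cells per library and group (0.24 and 0.29). The co-receptors Boc and Gas1 ran in opposite directions in the 2 comparisons: Boc was 3.53 ± 0.38 against endoneurial-marker and -1.29 ± 0.19 against epineurial-marker cells, and Gas1 2.22 ± 0.22 and -3.69 ± 0.12. Over the list, against endoneurial-marker cells 5 of 14 tested genes were higher and 3 lower (median log2 difference 0.26), and against epineurial-marker cells 5 of 16 tested genes were higher and 5 lower (median log2 difference -0.24).

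Gap junction and adhesion genes were mostly higher than in endoneurial-marker cells, where 13 of 24 tested genes were higher and 2 lower (median log2 difference 1.16). Against epineurial-marker cells, 11 of 25 tested genes were higher and 6 lower (median log2 difference 0.29). Gjb2 (connexin 26), a channel protein between cells, had 44.6, 73.0 and 31.0 CPM against 3.87, 2.40 and 3.02 CPM in endoneurial-marker cells and 0.299, 0 and 0.494 CPM in epineurial-marker cells. Gjb6 (connexin 30) had 11.7, 12.7 and 13.3 CPM against 3.87, 2.06 and 2.75 and 0 CPM, at least 47.3-fold higher than in epineurial-marker cells. Cdh5, the cadherin of endothelial junctions, was 3.54 ± 0.18 and 1.78 ± 0.13 higher, at 119, 96.8 and 111 CPM, while Pecam1 was at 0 by the rule and Tie1, another endothelial gene, at 0 UMIs. Of 11 endothelial genes, the summed level was lower in the perineurial-like cells (499.8 to 534 CPM) than in endoneurial-marker (953 to 994 CPM) and epineurial-marker cells (954 to 979 CPM).

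Basal lamina and integrin genes were higher more often than lower. Against endoneurial-marker cells 10 of 24 tested genes were higher and 4 lower (median log2 difference 0.43), and against epineurial-marker cells 13 of 24 tested genes were higher and 4 lower (median log2 difference 0.46). Itga6, the laminin-binding partner of Itgb4, had 123, 152 and 165 CPM against 23.6, 20.3 and 21.2 CPM in endoneurial-marker and 30.5, 32.3 and 31.6 CPM in epineurial-marker cells, 2.68 ± 0.14 and 2.01 ± 0.12 higher. The type IV collagen chain Col4a1 was 0.71 ± 0.06 and 1.08 ± 0.06 higher and nidogen 2 (Nid2), which links laminin to type IV collagen, 1.14 ± 0.11 and 1.24 ± 0.10. The laminin chain Lama2 lay between the groups, -0.78 ± 0.12 against endoneurial-marker and 0.44 ± 0.13 against epineurial-marker cells, the latter not passing without P1 replicate 3 (0.38), with a sum of at least 5 UMIs of the 4 perineurial genes (0.12), with at least 3 of Crabp2 and Lypd2 (0.22), with at most 50 cells per library and group (0.13) or with DESeq2 (adjusted p = 0.1884).

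Retinoid genes divided. Against endoneurial-marker cells 6 of 18 tested genes were higher and 3 lower (median log2 difference 0.39), and against epineurial-marker cells 5 of 20 tested genes were higher and 9 lower (median log2 difference -0.23). Rarres1, a gene induced by retinoic acid, was 0.61 ± 0.09 and 2.79 ± 0.11 higher. The retinoic acid-making enzyme Aldh1a2 had 29.4, 27.0 and 22.1 CPM, between 4.22, 4.81 and 3.58 CPM in endoneurial-marker and 70.7, 61.3 and 53.8 CPM in epineurial-marker cells. Stra6, the membrane receptor that takes up retinol, had 12.9, 6.35 and 5.90 CPM against 11.3, 14.4 and 17.0 CPM in endoneurial-marker and 0, 0.504 and 0.494 CPM in epineurial-marker cells.

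Wnt genes were in part shared with the epineurial-marker cells. Against endoneurial-marker cells 14 of 23 tested genes were higher and 5 lower (median log2 difference 1.62), led by Sfrp5 and Wnt6, whereas against epineurial-marker cells 9 of 27 tested genes were higher and 14 lower (median log2 difference -0.78). The secreted antagonist Sfrp4 illustrates the pattern, 1.37 ± 0.34 against endoneurial-marker and -4.93 ± 0.14 against epineurial-marker cells, the former not passing without P1 replicate 1 (0.61), with a sum of at least 5 UMIs of the 4 perineurial genes (0.58) or with DESeq2 (adjusted p = 0.1096). In the TGFβ and BMP list, 18 of 35 tested genes were higher and 5 lower (median log2 difference 0.56) in the first comparison, and 9 of 39 tested genes were higher and 20 lower (median log2 difference -0.54) in the second. Ltbp1, which holds latent TGFβ in the matrix, was higher in both, by 3.11 ± 0.13 and 1.79 ± 0.11, beside Bmp3.

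Among collagens, 7 of 23 tested genes were higher and 14 lower (median log2 difference -0.59) against endoneurial-marker cells, and 7 of 21 tested genes were higher and 8 lower (median log2 difference -0.14) against epineurial-marker cells. Col18a1, a collagen of basement membrane zones, was higher in both comparisons, by 1.35 ± 0.08 and 2.06 ± 0.09. Col26a1 had 127, 103 and 115 CPM, below 402, 403 and 401 CPM in endoneurial-marker and above 7.79, 6.56 and 9.63 CPM in epineurial-marker cells. Col11a1 followed the same order, -2.10 ± 0.09 and 1.93 ± 0.15.

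Growth factor and imprinted genes were more often lower: 11 of 34 tested genes were higher and 16 lower (median log2 difference -0.33) against endoneurial-marker cells and 8 of 39 tested genes were higher and 27 lower (median log2 difference -0.88) against epineurial-marker cells. Pdgfra, the PDGF receptor of most fibroblasts, had 127, 76.2 and 82.6 CPM against 241, 169.7 and 160.3 CPM in endoneurial-marker and 178, 141 and 146 CPM in epineurial-marker cells, -1.07 ± 0.10 and -0.90 ± 0.11. Igf1, insulin-like growth factor 1, was -1.77 ± 0.06 and -2.08 ± 0.07. Igfbp7, a secreted binding protein, was higher against both, by 1.11 ± 0.04 and 1.62 ± 0.05.

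Guidance and neurotrophic genes were near balance: 9 of 25 tested genes were higher and 6 lower (median log2 difference 0.23) against endoneurial-marker cells, and 8 of 25 tested genes were higher and 8 lower (median log2 difference 0.18) against epineurial-marker cells. Ntf3 (neurotrophin 3), a survival factor for sensory neurons, had 11.7, 11.1 and 17.7 CPM against 1.76, 0.343 and 0.55 CPM in endoneurial-marker and 3.00, 5.55 and 3.46 CPM in epineurial-marker cells. It was 3.80 ± 0.53 and 1.56 ± 0.38 higher, the latter not passing with DESeq2 (adjusted p = 0.0564). Ntn1 (netrin 1), a guidance cue, was 4.05 ± 0.30 against endoneurial-marker but -0.81 ± 0.16 against epineurial-marker cells.

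Of the transcription factors, 11 of 42 tested genes were higher and 20 lower (median log2 difference -0.37) against endoneurial-marker cells, and 18 of 42 tested genes were higher and 18 lower (median log2 difference -0.05) against epineurial-marker cells. The forkhead genes Foxc1 (0.48 ± 0.19 and 1.99 ± 0.23), Foxd1 (0.42 ± 0.10 and 1.77 ± 0.12), Foxd2 (0.70 ± 0.15 and 2.90 ± 0.20) and Foxc2 (1.2 ± 0.12 in the first comparison) were higher in both, as was Runx1, a factor of the runt family (0.69 ± 0.22 and 2.12 ± 0.27). Against endoneurial-marker cells Foxc1 did not pass without any 1 of the P1 replicates (0.30 to 0.56), Runx1 without replicate 1 (0.75) or 2 (0.57), and Foxd1 without replicate 1 (0.31). None of these 3 passed there with DESeq2 or with at least 3 UMIs of Crabp2 and Lypd2, and under the latter Foxd2 was 0.45 and did not pass. Sox9, a transcription factor of cartilage, lay between the groups, -0.90 ± 0.10 and 3.68 ± 0.17. Ppargc1a, a coactivator of mitochondrial genes, had 25.8, 23.8 and 47.2 CPM against 5.63, 7.21 and 8.80 CPM in endoneurial-marker and 1.5, 1.01 and 1.48 CPM in epineurial-marker cells.

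Markers of other cell types were given for the whole lists, and their part in the results was not tested. The 13 Schwann cell genes summed to 758 to 1104 CPM in the perineurial-like cells, 925 to 1129 CPM in endoneurial-marker, 1237 to 1805 CPM in epineurial-marker and 11052 to 11745 CPM in all other cells. The 12 mural genes summed to 333 to 484 CPM, with Myh11 and Des at 0, against 146 to 183 CPM in endoneurial-marker and 453 to 462 CPM in epineurial-marker cells. The 11 immune genes summed to 32.5 to 44.4 CPM and the 11 skeletal muscle genes to 12.9 to 16.2 CPM, 8 of the latter at 0. Among 20 cell cycle genes other than Mki67 and Top2a, 10 of 17 tested genes were higher and 0 lower (median log2 difference 0.95) against epineurial-marker cells, although all groups were chosen without UMIs of Mki67 and Top2a, and 3 of 19 tested genes were higher and 4 lower (median log2 difference 0.08) against endoneurial-marker cells. Of 22 genes that respond to dissociation, 3 of 21 tested genes were higher and 12 lower (median log2 difference -0.38) against endoneurial-marker cells and 7 of 21 tested genes were higher and 10 lower (median log2 difference -0.25) against epineurial-marker cells.

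The same rule was then applied to the P60 libraries. They are not independent of it, since it was chosen with earlier results of the series known. The P60 cells were also chosen on RNA counted in these libraries, so their differences from other P60 cells are descriptions of size. It took 542 cells (122, 174 and 246), 8.77% ± 2.92 (SD, n = 3) of P60 cells with Col1a2, and these were set against the other 5620 P60 cells with Col1a2. The requirement of 5 Col1a2 UMIs weighed more at P60: with at least 1 UMI the rule took 316, 603 and 576 P60 cells, against 113, 95 and 88 at P1. Of 12444 genes, 47.3% passed an adjusted p of 0.05, 2865 higher and 3027 lower, and without P60 replicate 3 the count was 5198. The P60 cells had a median of 7763 ± 1163 UMIs against 5191 ± 1032 in the others, and 9.84, 13.8 and 22.0% of them by library had more than 10% mitochondrial UMIs, against 0.832, 0.993 and 10.2% of the others. Without such cells 5684 genes passed, Chchd10 at 2.90 and Ppargc1a at 2.79. A further 402 P60 cells were outside the rule through Pi16 and Clec3b alone and stood among those others. Against these 402 cells, an alternative added after the data were seen, 9.96% of 9173 genes passed. Slc2a1 (0.15), Klf5 (0.13), Rspo1 (0.08), Sfrp5 (0.07) and Wnt6 (0.02) did not pass against them, so the P60 differences of these genes below hold against the other cells as a whole.

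The markers were proposed from these data, so their P60 differences are given as sizes without a test. Klf5 had 736, 721 and 664 CPM in the P60 cells passing the rule against 112, 154 and 101 CPM in the others, 2.48 ± 0.09 higher. Wfdc1 had 978, 1056 and 828 against 158, 223 and 114 CPM, 2.5 ± 0.09 higher. Rspo1 had 323, 275 and 327 against 50.8, 72.2 and 56.7 CPM, 2.30 ± 0.10 higher. These 3 did not overlap between the groups. Hhip stood apart, with 0, 2.10 and 1.17 CPM against 3.90, 2.48 and 2.32 CPM, levels near 0 with a difference of -1.28 ± 0.65.

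Slc2a1, Ptch1 and 4 genes that led at P1 (Sfrp5, Bmp3, Cxadr and Gsta4) were also higher in the P60 cells passing the rule. Slc2a1 had 1049, 1098 and 955 against 180.0, 235 and 155 CPM, 2.39 ± 0.07 higher. Ptch1 had 372, 394 and 625 against 66.6, 74.8 and 106 CPM, 2.42 ± 0.07 higher, and Sfrp5 was 2.52 ± 0.08, Bmp3 2.26 ± 0.11, Cxadr 3.15 ± 0.16 and Gsta4 2.75 ± 0.08 higher. The genes with the largest differences, by the rule for naming, were Mybph (3.65 ± 0.22), Chchd10 (3.17), Cxadr, the potassium channel Kcnj13 (3.14), Ppargc1a (3.09) and the keratin Krt7 (3.06). The lowest were Osr1 (-7.08 ± 0.26), Fst (-6.97), Smpd3 (-6.95), Pcolce2 (-6.82), Ifi204 (-6.61) and 1700019D03Rik, 129.7-fold (95% counting interval 44.3 to 629) lower. Osr1 is a transcription factor of connective tissue and Pcolce2 an enhancer of procollagen processing, a gene of epineurial fibroblasts.

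At P60 the gene lists divided. Of the adult perineurial list, 22 of 25 tested genes were higher and 0 lower (median log2 difference 2.41), and of the tight junction list, 10 of 20 tested genes were higher and 6 lower (median log2 difference 0.94). Barrier transport genes were more often higher: 10 of 18 tested genes were higher and 8 lower (median log2 difference 1.21), and the basal lamina list likewise: 18 of 31 tested genes were higher and 10 lower (median log2 difference 0.55). In contrast, 3 of 25 tested genes were higher and 17 lower (median log2 difference -1.70) for the collagens, 2 of 20 tested genes were higher and 17 lower (median log2 difference -3.87) for the epineurial genes, and 3 of 16 tested genes were higher and 12 lower (median log2 difference -2.06) for the endoneurial genes. Beside these counts, 23.0% of all genes were higher and 24.3% lower. The rule limited Pi16, Clec3b, Meox1 and Cdkn2b in the cells passing it, so the epineurial and endoneurial counts follow in part from the choice of cells.

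Cells passing the rule at P1 and P60 were compared directly, with age, sort and library inseparable. Of 8444 genes tested, 45.9% passed an adjusted p of 0.05, 2023 higher at P60 and 1855 higher at P1 (median of all genes 0.02), and without P60 replicate 3 the count was 4243. Differences are given as P60 minus P1 on the log2 scale, and those printed without a p passed, except for the markers, which are given without a test.

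Barrier genes were mostly higher at P60 where they passed. Slc2a1 had 64.6, 55.5 and 59.0 CPM at P1 and 1049, 1098 and 955 CPM at P60, 4.17 ± 0.14 (adjusted p = 1.19e-12, edgeR). Tjp1 had 65.7, 69.8 and 70.8 and 247, 277 and 346 CPM, 2.14 ± 0.16 (adjusted p = 1.71e-08, edgeR). Cldn22, a claudin, had 3.52, 6.35 and 2.95 and 1206, 1139.8 and 926 CPM, 8.05 ± 0.23 (adjusted p = 2.78e-13, edgeR). None of these overlapped between the ages. Abcb1a, a drug efflux pump of barriers, was at 1 UMI in the P1 cells and 468-fold (95% counting interval 83.8 to 18517) higher at P60, and Abcg2, another efflux pump, was 3.03 ± 0.23. Over the lists, 10 of 16 tested genes were higher and 2 lower (median log2 difference 1.14) for tight junctions and 10 of 14 tested genes were higher and 1 lower (median log2 difference 1.88) for transport, beside 24% of all genes higher and 22.0% lower. The same shares over all genes stand beside the other list counts of this comparison. Ocln was not among the genes that passed, at 9.39, 17.5 and 22.1 CPM at P1 and 19.6, 16.1 and 22.2 CPM at P60, 0.35 ± 0.33 (adjusted p = 0.413, edgeR), though it was 0.79 and passed when 1 Col1a2 UMI was enough.

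Tagln, Acta2, Gas6 and Sfrp5 were also higher at P60. Tagln (transgelin), an actin-binding protein, had 112, 102 and 103 CPM at P1 and 3066, 2292 and 2658 CPM at P60, 4.72 ± 0.14, and smooth muscle actin (Acta2) was 3.72 ± 0.28. The 12 mural genes summed to 3779.5 to 4807 CPM in the P60 cells against 333 to 484 CPM at P1, and their part in these values was not tested. Gas6 had 168, 189 and 121 and 4006, 3644 and 3198 CPM, 4.57 ± 0.16, and Sfrp5 629, 528 and 457 and 10664, 10531 and 7075 CPM, 4.19 ± 0.17. Among genes at 0 UMIs in the P1 cells, Cpxm2 was at least 129-fold, the pacemaker channel Hcn4 at least 116-fold, Retnla at least 94.7-fold, the netrin Ntn4 at least 58.3-fold and Tmtc1 at least 39.7-fold higher at P60.

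**Figure D4:**
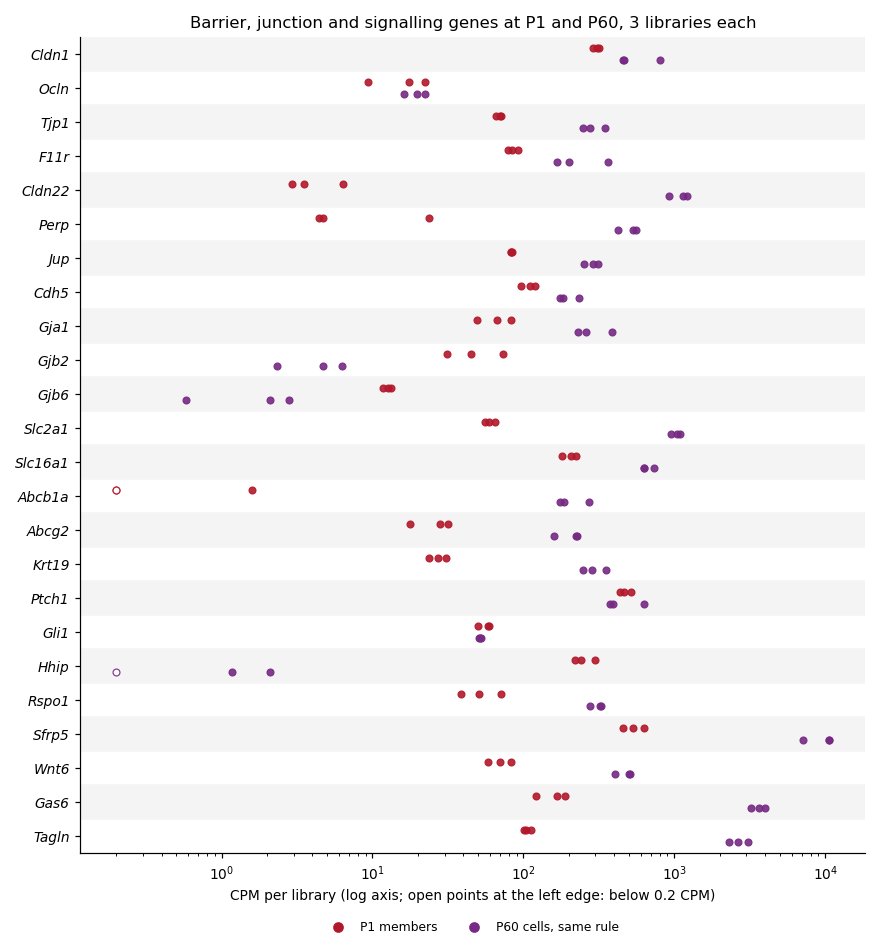
Level in CPM (log axis) of 24 genes of junctions, transport, adhesion and the cytoskeleton, Cldn1 to Tagln, in cells passing the rule at P1 and at P60, each point being 1 of 3 libraries and open points at the left edge being near or at 0. Slc2a1, Tjp1, Cldn22 and Tagln stand higher at P60, while Gjb2 and Gjb6 stand higher at P1.

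Dlk1 was among the genes with the largest falls from P1 to P60. This imprinted, Notch-related membrane protein had 2829, 3009.6 and 3587 CPM at P1 and 2.80, 0.701 and 0 CPM at P60, -11.46 ± 0.28 (adjusted p = 3.47e-14, edgeR). Kera was at 136, 122 and 151 CPM at P1 and at 0 UMIs at P60, at least 192-fold lower, and Col26a1 was also at 0 at P60, at least 163-fold lower. Cthrc1, a secreted protein of collagen-producing cells, was 806-fold (95% counting interval 222 to 6668) lower, 6330403K07Rik 236-fold (95% counting interval 41.5 to 9394) lower and Agtr2, the angiotensin II receptor of developing tissue, differed by -7.21 ± 0.35. Igf2 was 93.6-fold (95% counting interval 16.0 to 3772) lower at P60, Mest -6.42 ± 0.15 and H19 -3.83 ± 0.17, all imprinted genes like Dlk1. Of the growth factor and imprinted genes, 7 of 33 tested genes were higher and 18 lower (median log2 difference -0.67). Ntf3 was at 0 UMIs at P60, at least 18.8-fold lower, and the connexins Gjb2 (-3.41 ± 0.40) and Gjb6 (-2.76 ± 0.50) were lower too. Of the transcription factors, 6 of 37 tested genes were higher and 18 lower (median log2 difference -0.38), and of the gap junction and adhesion genes, 8 of 22 tested genes were higher and 10 lower (median log2 difference -0.23). The Wnt list ran the other way, where 13 of 21 tested genes were higher and 4 lower (median log2 difference 1.08), as did the TGFβ and BMP list, where 15 of 33 tested genes were higher and 9 lower (median log2 difference 0.56).

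Collagens were lower at P60 as a list: 2 of 19 tested genes were higher and 15 lower (median log2 difference -2.15). Col1a1 had 10121, 10657 and 10240.3 CPM at P1 and 745, 727 and 918 CPM at P60, -3.63 ± 0.11 (adjusted p = 5.26e-13, edgeR). Col3a1 differed by -2.74 ± 0.14, Col14a1 by -5.86 ± 0.22 and Col18a1 by -4.97 ± 0.21. Of the basal lamina and integrin genes, 14 of 29 tested genes were higher and 5 lower (median log2 difference 0.51). The laminin chains differed in direction, Lamb1 at -3.81 ± 0.22 and Lamb2 at 2.44 ± 0.14, and Itga6 was 1.94 ± 0.16. The retinoid genes Rbp4 (5.83 ± 0.26) and Stra6 (4.68 ± 0.26) were higher at P60 and Rarres1 (-5.20 ± 0.22) lower.

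The markers were proposed from these data, so their differences between the ages are given as sizes without a test. The gene counts of this comparison include them. Hhip was far lower at P60, falling from 239, 298 and 218 to 0, 2.10 and 1.17 CPM, -7.53 ± 0.33. Rspo1 (2.60 ± 0.19) and Wfdc1 (1.44 ± 0.12) were higher at P60. Of the hedgehog genes with Hhip, 6 of 13 tested genes were higher and 4 lower (median log2 difference 0.16). Klf5 differed less, 0.35 ± 0.11. It was 0.32 without P1 replicate 1, 0.30 without P1 replicate 3 and 0.34 without P60 replicate 1 or 2. With a sum of at least 5 UMIs of the 4 perineurial genes it was 0.22, and with at least 3 of Crabp2 and Lypd2 0.23. Of the cell cycle genes, 0 of 12 tested genes were higher and 11 lower (median log2 difference -2.52), and Ccnb2 was at 0 UMIs at P60. Of the genes that respond to dissociation, 2 of 21 tested genes were higher and 16 lower (median log2 difference -1.15), and the part of sample handling in that was not tested.

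**Figure D5:**
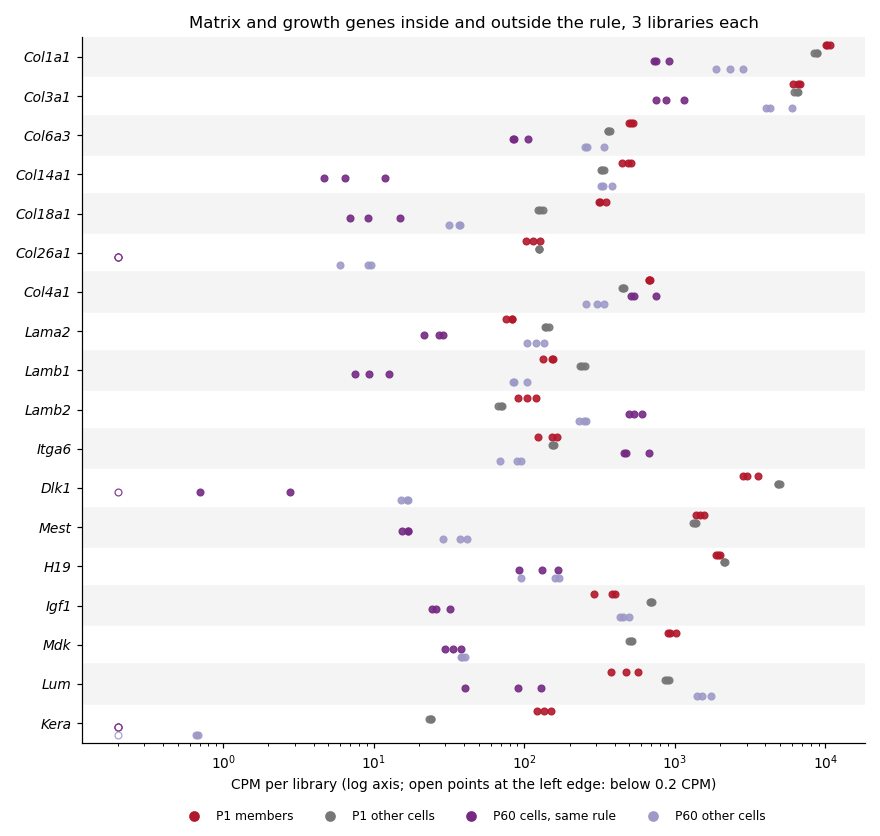
Level in CPM (log axis) of 18 matrix and growth factor genes, Col1a1 to Kera, in cells passing the rule and in other cells with Col1a2, at P1 and at P60, each point being 1 of 3 libraries and open points at the left edge being near or at 0. Col1a1, Col14a1, Col18a1 and Dlk1 stand lower at P60 in the cells passing the rule.

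Whether the rule set cells apart by the same amount at both ages was tested directly, as the P1 difference from all other cells with Col1a2 minus the P60 difference. Of 13595 genes, 24.1% passed an adjusted p of 0.05, 1513 with a larger value at P1 and 1770 with a smaller one, and 5.2% of 10164 genes when the cells outside were limited to those outside through Pi16 and Clec3b alone. For Slc2a1 the difference was -0.40 ± 0.15 (adjusted p = 0.0396, edgeR), smaller at P1. It did not pass without any 1 replicate other than P60 replicate 2 (-0.46 to -0.32), with a sum of at least 5 UMIs of the 4 perineurial genes (-0.12), with at least 3 of Crabp2 and Lypd2 (-0.08) or with DESeq2 (-0.37), and was 1.79 (adjusted p = 1.11e-07, edgeR) under the limit to cells outside through Pi16 and Clec3b alone, larger at P1. For the lists, 12 of 29 tested genes were higher and 2 lower (median log2 difference 1.17) for collagens, 2 of 25 tested genes were higher and 14 lower (median log2 difference -0.79) for the adult perineurial genes and 2 of 20 tested genes were higher and 11 lower (median log2 difference -0.67) for tight junctions, higher meaning a larger value at P1. Beside these counts, 11.1% of all genes were higher and 13.0% lower. The other cells also differ between the ages in sort and make-up, which cannot be told apart from age here.

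The sources used here do not state whether reads were counted by strand. If they were not, reads of a gene and of a neighbour on the opposite strand that shares its exons cannot be told apart. This would touch Cxadr (with Btg3), Dleu7 (Rnaseh2b), Gas6 (Tmem255b), Gli1 (Arhgap9), Itgb4 (B230344G16Rik), Cldn22 (Wwc2), Tagln (Pcsk7), Igfbp7 (Polr2b), Mest (Copg2), Nid2 (Rtraf), Kcnj13 (Gigyf2), Mybph (Adora1), Chchd10 (Mmp11), Smpd3 (Prmt7), Col4a1 (Col4a2), Ccdc3 (Gm26776), Ifi30 (6330537M06Rik), Igf2 (Igf2os), Abcb1a (Gm42686) and Hspb2 (Cryab). The same would hold for Hhip, Slc2a1, Pdgfra, Fst, Sfrp2, Gas1, Dhh, Lama2, Runx1, Shisa3, H19, Krt7, Cpxm2, Bcas1, Efhd1, Des and Pi16. Counting by strand does not separate neighbours on the same strand, which share exons with Igf2 (Gm49394), Col3a1 (Gm47302), Spp1 (Gm42793) and Dhh (Rhebl1), among others.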

How the data were processed

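Single cells of 3 P1 and 3 P60 suspensions were profiled with the 10x 3′ v2 kit. The deposited values are UMI counts per gene and cell, which the authors made with Cell Ranger 2.0.2 (GRCm38.p5 per the submitters' processing notes), 41605 gene identifiers in each library, without normalization. Coordinates are from GENCODE M21 (GRCm38). The cells and gene lists were chosen with earlier results of these data known. Counts were summed per library and cell group and tested with edgeR 4.0.16 (R 4.3.3) by the quasi-likelihood test, with TMM scaling, filterByExpr, the library as a block for comparisons within libraries, and Benjamini-Hochberg adjustment at 0.05. The 14 rule genes stayed untested, and so did the other markers at P1. The differences of these markers within P60 and between P1 and P60 are given as sizes only. Each suspension is 1 replicate, and p-values set a difference against its variation between suspensions. With the library as a block, this is the variation of the difference within libraries. Ratios against groups at 0 UMIs use a floor of 3 counts over the group. Named genes were the markers and rule genes, the 12 largest and 12 smallest differences from all other P1 cells and the 6 and 6 of each other comparison (at least 50 CPM in the higher group, 1 direction in all 3 libraries), list members, Slc2a1 and Pdgfra, of which a few are not reported here. Cells of 500 to 5000 genes were kept. DESeq2 1.42.0, scaling by total UMIs, other thresholds and left-out replicates were alternatives, and each fit was tested on simulated data. Deviations from the age mean correlated at 0.0275 to 0.0406 between P1 and P60 libraries of the same replicate number. For different numbers the correlations were -0.0397 to 0.0105. Cells inside and outside the rule of the same P1 library correlated at only -0.0044 to 0.0566. The check therefore cannot tell whether the numbers pair the ages, and the main fit did not pair them.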

Additional observations from a re-analysis of the deposited data

Results flagged for a closer look

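For 11 of the genes named, the difference between cells inside and outside the rule was not the same at P1 and P60, by the test of the difference itself (P1 minus P60 difference on the log2 scale ± SE, adjusted p by edgeR's quasi-likelihood test over all genes). Of these, 6 had the larger value at P1. Col14a1 differed by 6.04 ± 0.17 (adjusted p = 3.079e-30), with a P1 difference of 0.51 and a P60 difference of -5.54. Dkk2, a Wnt antagonist, differed by 5.87 ± 0.31 (adjusted p = 2.781e-20), from 0.46 to -5.43, and Basp1, a membrane protein of growing neurites, by 5.51 ± 0.38 (adjusted p = 3.372e-16), from -0.03 to -5.55. Col26a1 differed by 9.06 ± 1.14 (adjusted p = 2.211e-08), the mitotic cyclin Ccnb2 by 7.54 ± 1.62 (adjusted p = 0.00034) and Kera by 7.54 ± 1.84 (adjusted p = 0.001559), and all 3 were at 0 UMIs in the P60 cells passing the rule.

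The other 5 had the smaller value at P1. Gatm, an enzyme of creatine synthesis, differed by -4.76 ± 0.16 (adjusted p = 5.564e-27), from -2.85 at P1 to 1.90 at P60. Hspb2, a small heat shock protein, differed by -4.77 ± 0.34 (adjusted p = 1.393e-15), from -2.91 to 1.84, and Gpm6a, a neuronal membrane glycoprotein, by -4.63 ± 0.53 (adjusted p = 1.78e-09), from -1.96 to 2.65. Cldn5, the endothelial claudin, differed by -4.47 ± 0.82 (adjusted p = 3.201e-05), with lower levels inside the rule at both ages, where the rule had removed cells with Pecam1. The P1 perineurial-like cells held only 1 UMI of Cldn5 and 3 of Gpm6a, so the sizes of these differences rest on very few molecules. Tmtc1 (-8.03 ± 2.05, adjusted p = 0.002483) was at 0 UMIs in the P1 perineurial-like cells. Fitted values of genes at 0 UMIs in a group depend on the prior count and give no size. Against the cells outside the rule through Pi16 and Clec3b alone, a limit chosen after seeing the data, Gatm was 1.32 (adjusted p = 0.0007949) and Gpm6a 0.40 (adjusted p = 0.9144), both opposite in sign. Col14a1 (3.18), Dkk2 (3.01) and Basp1 (2.62) still passed there, and Col26a1, Ccnb2, Kera, Hspb2, Cldn5 and Tmtc1 did not. The age difference of the sort was not separable from any of these.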

How the results depend on the processing

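Of 3964 recomputed values of 285 named gene-and-comparison results, 3835 kept direction and side of the threshold, 121 fell below it, 5 passed it and 3 changed sign. Those 3 came from the comparison of ages when the cells outside the rule were limited to those outside through Pi16 and Clec3b alone: Gatm 1.32, Gpm6a 0.40 and Slc2a1 1.79. That limit, chosen after seeing the data, gave 1699 genes against other P1 cells, 914 at P60 and 529 for the difference between ages. At most 50 cells per library and group gave 1037 genes against other, 1243 against endoneurial-marker and 1386 against epineurial-marker P1 cells, 1486 at P60, 852 for the difference between ages and 2370 for P1 against P60, with fewer cells counted. DESeq2 called 1962, 1446 and 1992 genes in the 3 P1 comparisons, 0 within the perineurial-like cells and 3891 at P60, and the cause was not tested. With a sum of at least 5 UMIs, 0 genes passed within the perineurial-like cells. The share of perineurial-like cells was 4.68% at a sum of at least 2 and 1.89% at 5. Without thinning, detection was 82.3% for Crabp2, 47.6% for Lypd2, 20.7% for Rspo1, 68.4% for Hhip, 90.1% for Klf5 and 84.0% for Wfdc1.

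Leaving out 1 replicate gave 2418 to 2700 genes against other, 2237 to 2505 against endoneurial-marker and 3110 to 3367 against epineurial-marker P1 cells, 4780 to 5198 at P60, 2598 to 3072 for the difference between ages, 3392 to 4243 for P1 against P60, and shares of 2.85 to 3.60%. The split within the perineurial-like cells could not be fitted without P1 replicate 1 or 2. With the replicate number as a block, P1 against P60 gave 4008 genes against 3878 without, and it lost none of 67 named results. Without the library as a block, the P1 comparisons gave 3306, 2775 and 3660 genes, P60 gave 3993, the difference between ages 2234 and the split within the perineurial-like cells 4. Depth limits genes near 0 UMIs in 294 cells.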
